A study of Caenorhabditis elegans with 2 samples.

Results

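The Argonaute genes of Caenorhabditis elegans encode the proteins that hold small RNAs and use them to find matching transcripts. A list of 10 of them, chosen by name, was described here out of 19973 protein-coding genes. They are rde-1, alg-1, alg-2, ergo-1, prg-1, csr-1, hrde-1, wago-1, alg-3 and alg-4, and all were found in the annotation. The data come from chromatin immunoprecipitation with sequencing of LIN-35 in whole L1 larvae. LIN-35 is the worm retinoblastoma-family protein and a subunit of the DREAM complex, a repressor of cell cycle genes that has also been linked to keeping germline genes silent in somatic cells. There was 1 group of 2 biological replicates, with both sexes pooled, and age is given only as the larval stage. The animals were of strain YL398, written unc119(ed3)III with the insertion vrIs55. In that transgene pGES-1, a promoter of a gut esterase gene, drives LIN-35 joined to GFP and FLAG. It carries the LIN-35 3'UTR at its end and unc-119 (+) as the marker. If only the fusion was precipitated, binding would have been seen mainly in gut cells, and the labels name both LIN-35 and its GFP fusion as the target. No group without the transgene was analysed here. Peaks are not expression, so the larval cell types could not be checked against marker genes.

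Argonautes divide the work of small RNA silencing by the RNA they carry and by the tissue they serve. ALG-1 and ALG-2 carry microRNAs, which tune messenger RNAs in most somatic tissues. RDE-1 is the primary Argonaute for foreign double-stranded RNA. The others act mainly in the germ line. PRG-1 carries piRNAs, ERGO-1 carries 26G RNAs in oocytes and embryos, and ALG-3 and ALG-4 carry 26G RNAs during sperm formation. CSR-1 carries 22G RNAs that match genes the germ line expresses, WAGO-1 carries 22G RNAs against other transcripts in the cytoplasm, and HRDE-1 carries inherited 22G RNAs into the nucleus. For the contrast below, rde-1, alg-1 and alg-2 were taken as the somatic members and the other 7 as the germline members, from this background and not from the files. The split is a simplification, since RDE-1 also acts in the germ line and CSR-1 is also found in the gut.

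A reproducible peak summit lay in the gene body or within 1000 bp upstream of a start at all 3 somatic members and at none of the 7 germline members, against 26.8% of all protein-coding genes. This joined rule takes in the most genes of all rules run on the reproducible list. With narrower rules below, as few as 1 of the 3 somatic members was called. The reproducible list is the authors' list of 6712 peaks thresholded by the irreproducible discovery rate (IDR), a measure of how well the replicates rank the same peaks. Its signal, the enrichment scored by the authors' caller, had a median of 98.5 and a range of 45.9 to 4903. Its peaks were the same as the 6712 of highest signal in the authors' relaxed list for both replicates pooled. A gene could therefore be called from it without a promoter summit in each replicate list, as at rde-4 and drh-3 below. The promoter window of a gene took in the 500 bp before and the 200 bp after any of its annotated transcript starts. The base at the top of a peak, its summit, fell in such a window for 2 of 3 somatic members, alg-1 and rde-1, and for 0 of 7 germline members. Among all protein-coding genes 19.8% had such a summit, so the 2 of 10 members together (20%) sit at the background. With only 7 genes, a count of 0 can occur at the background share. The germline count alone therefore does not set these genes apart. The counts are over few genes chosen by name with earlier results of these data known, and no test was made of the contrast.

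**Figure D1:**
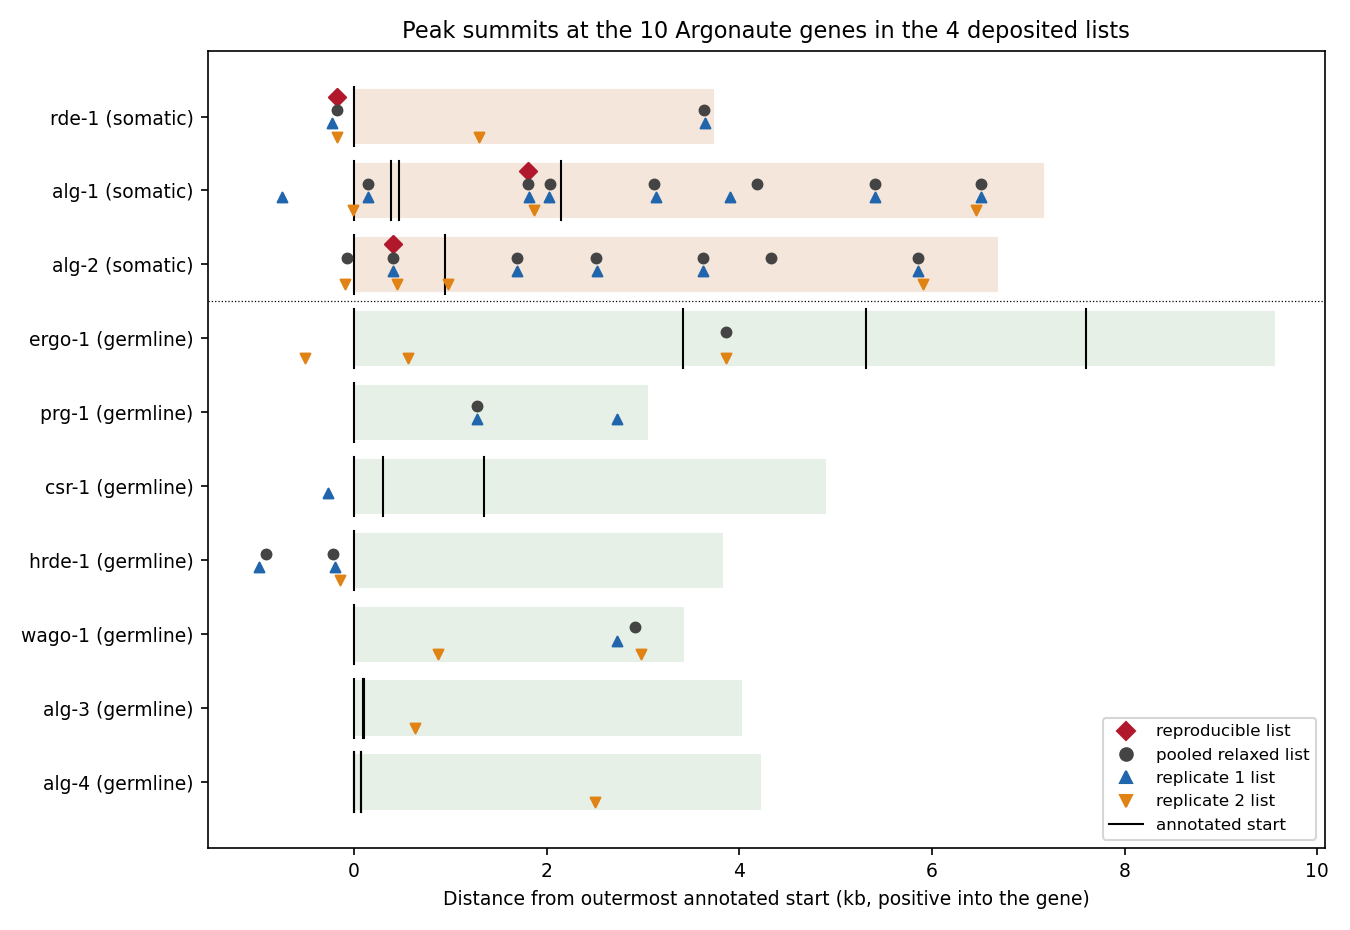
Each row is one gene, drawn as a bar from its outermost annotated start, with the distance from that start in kb on the horizontal axis, vertical lines at annotated starts and symbols at peak summits in each of the 4 lists. The reproducible summits, drawn as diamonds, appear in the rows of rde-1, alg-1 and alg-2 and in none of the 7 germline rows.

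The sequences under the 3 reproducible summits are shown so that the bound sites can be compared. They are read 5′ to 3′ on the plus strand of the ce11 build, and capitals mark matches to TTTGAA, a core of the cell cycle homology region (CHR) that DREAM components can recognise. The rde-1 stretch is chrV:9991750-9991894, between rde-1 and its divergent neighbour trpp-6. The alg-2 stretch is chrII:873537-873687. Its summit lies in an intron, while its last bases, with the capitals, lie in the non-coding RNA gene T07D3.12. For alg-1 only 30 bases, chrX:13950902-13950931, are shown, because its summit lies in a stretch that one transcript carries as a UTR exon.

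rde-1: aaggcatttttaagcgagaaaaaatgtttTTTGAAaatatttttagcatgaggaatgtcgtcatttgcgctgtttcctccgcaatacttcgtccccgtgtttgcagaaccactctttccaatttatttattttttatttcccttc

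alg-2: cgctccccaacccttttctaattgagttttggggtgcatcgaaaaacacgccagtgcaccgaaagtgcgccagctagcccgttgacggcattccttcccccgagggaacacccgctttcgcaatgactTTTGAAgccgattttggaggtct

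alg-1: cttgttagtgtacaatagcgtatagtactg

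The stretches differ in base composition, with 35.2% G and C in the 145 bases at rde-1, 54.3% in the 151 bases at alg-2 and 36.7% in the 30 bases at alg-1. One CHR core lay 43 bp from the rde-1 summit and one 56 bp from the alg-2 summit, while the 151 bases around the alg-1 summit held none. Of all reproducible peaks, 27.8% had TTTGAA on either strand within 75 bp of the summit, against 40.3% of the 151-base stretches directly upstream of the outermost start of each protein-coding gene. None of the 3 summits had within 75 bp an E2F site of 8 bases (GCGCCAAA, GCGCGAAA, GCGGCAAA or GCGGGAAA), which 5.88% of reproducible peaks and 2.37% of the upstream stretches had. None had the shorter E2F core (GCGCGAA or GCGGGAA), found at 6.90% and 2.63%. The core can overlap an 8-base site. The GATA motif TGATAA, a letter string read by gut GATA factors, was also at none of the 3 within 75 bp, against 23.3% of reproducible peaks and 18% of the upstream stretches.

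In the whole promoter window around the outermost start, 701 bases, the motifs were found in both classes. TTTGAA was in 2 of 3 somatic and 6 of 7 germline windows, against 88.9% of all protein-coding genes. TGATAA was in 2 of 3 somatic and 4 of 7 germline windows, against 53.8%. The 8-base E2F site was in 0 of 3 somatic and 1 of 7 germline windows, against 10.1% of all genes, and the E2F core had the same counts against 10.6%. The germline gene with the E2F letters was prg-1, which had 1 site of 8 bases and 2 cores and no promoter summit in any of the 4 lists. A match describes letters in the window and shows no binding.

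Among the microRNA Argonautes, alg-1 had its peak between its annotated starts. The gene spans chrX:13949110-13956261 on the plus strand and has 4 annotated starts. The reproducible peak covered 13950847 to 13950954 with its summit at 13950916, 346 bp upstream of the innermost start and 1806 bp downstream of the outermost. Its signal was 126, rank 2565 of 6712. In the replicate 1 list the overlapping summit had signal 107 and rank 2758 of 30000, and in the replicate 2 list 19.5 and rank 1574 of 26341. Signal is scaled differently in each list, so only the ranks are set side by side: the top 9.19% in replicate 1 and the top 5.98% in replicate 2. Both replicates placed this site among their stronger peaks.

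Weaker summits lay at the outermost alg-1 start. The pooled relaxed list, called on both replicates together with a loose cutoff, had one 140 bp downstream of it (signal 18.1, rank 13394 of 30000), inside the snoRNA gene K02B9.10. Replicate 1 had a summit 142 bp downstream with rank 16283 of 30000, and replicate 2 one 13 bp upstream with rank 7815 of 26341. No reproducible peak was called there.

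Its paralog alg-2 had a peak of similar rank in its first intron. The gene spans chrII:873212-879885 on the plus strand and has 2 annotated starts 948 bp apart. The reproducible peak covered 873531 to 873674 with its summit at 873612, which is 400 bp downstream of the first start and 548 bp upstream of the second. It therefore missed both promoter windows. The signal was 144, rank 2217 of 6712. The summit lay 40 bp from the non-coding RNA gene T07D3.12, annotated at 873652 to 873780. Replicate 1 had its summit at the same base, with signal 138 and rank 2066 of 30000 (top 6.89%). Replicate 2 had it 45 bp away, inside T07D3.12, with signal 6.28 and rank 6505 of 26341 (top 24.7%). Both replicates listed this peak, higher in replicate 1.

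The replicates differed at the first alg-2 start. Replicate 2 had a summit 100 bp upstream of it with signal 8.51 and rank 4548 of 26341, above its own summit in the intron. Replicate 1 listed no summit in the promoter windows of alg-2. Replicate 2 also had a weak summit 30 bp downstream of the second start (rank 21467 of 26341). The pooled relaxed list had one 73 bp upstream of the first start with signal 12.3 and rank 18485 of 30000, far below the reproducible list's lowest signal.

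**Figure D2:**
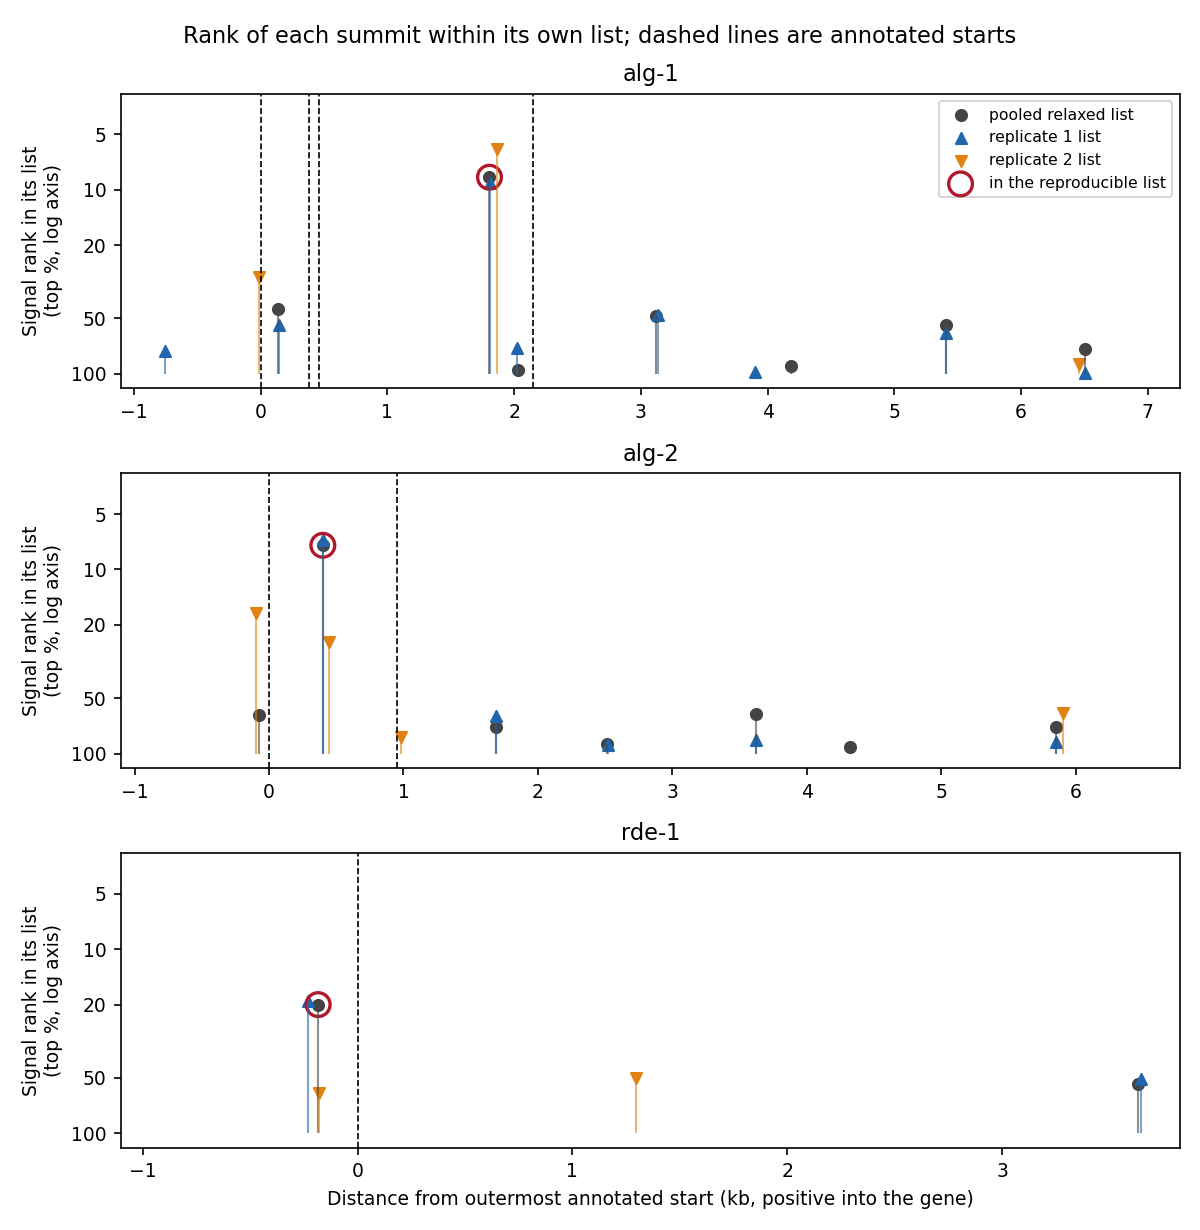
For alg-1, alg-2 and rde-1, each summit of the pooled relaxed and replicate lists is placed by its distance from the outermost start (kb) and by its rank within its own list (top percent, log axis, strongest at the top). The circled reproducible summits rank in the top 8.55% of the pooled relaxed list at alg-1, 7.39% at alg-2 and 20% at rde-1, while replicate 2 ranks its rde-1 promoter summit in the top 60.5%.

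The promoter peak of rde-1 was the weakest of the 3 and was shared with a neighbour. The gene spans chrV:9987916-9991642 on the minus strand with 1 annotated start. The reproducible peak covered 9991653 to 9991996 with its summit at 9991825, 183 bp upstream of the rde-1 start. The divergent gene trpp-6 starts 253 bp away, and the same summit was 70 bp upstream of that start, nearer than to rde-1. The signal was 52.6, rank 5993 of 6712, close to the lowest signal in the list. Among the 3959 genes with a reproducible promoter peak, 93.2% had a signal at least as high, against 53.5% for alg-1. Replicate 1 had signal 49.1 and rank 5715 of 30000 (top 19.1%), and replicate 2 had signal 3.12 and rank 15937 of 26341 (top 60.5%). The peak thus ranked far higher in replicate 1. In replicate 2 its −log10 q-value was 0.990, against 3.58 in replicate 1.

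None of the 7 germline members had a reproducible summit in the gene body or within 1000 bp upstream of a start, against 26.8% of all protein-coding genes, and with so few genes this count is not a result about them. The nuclear Argonaute gene hrde-1 (chrIII:4172337-4176159, minus strand) came nearest to a promoter call. Its promoter window held a summit in each of the other 3 lists: 203 bp upstream of the start in replicate 1 (signal 6.71, rank 28122 of 30000), 146 bp upstream in replicate 2 (signal 2.35, rank 22167 of 26341) and 216 bp upstream in the pooled relaxed list (signal 8.42, rank 26585 of 30000). All 3 ranks were near the bottom of their lists. As at rde-1, a divergent gene lay close by, C16C10.13, whose start is 281 bp from that of hrde-1. All 3 summits also lay in the promoter window of C16C10.13 and nearer to its start than to that of hrde-1. They were 78 bp from the C16C10.13 start in replicate 1, 135 bp in replicate 2 and 65 bp in the pooled relaxed list. A stronger pooled relaxed summit, 915 bp upstream (signal 15.7, rank 15021), lay in a coding exon and stayed outside the 500 bp window.

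For csr-1 (chrIV:7957267-7962157, plus strand), replicate 1 alone listed a promoter summit, 277 bp upstream of the first of 3 starts (signal 7.40, rank 25917 of 30000), and replicate 2 and the pooled relaxed list had none. The oocyte and embryo gene ergo-1 (chrV:1008803-1018352, plus strand, 4 starts) had no promoter summit in any list. A replicate 2 summit 507 bp upstream of its first start missed the window by a few bases (signal 2.78, rank 18348 of 26341). A coding exon summit, 445 bp downstream of the second start, was shared by replicate 2 (rank 11730 of 26341) and the pooled relaxed list (rank 28089 of 30000).

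The piRNA Argonaute gene prg-1 and the 22G gene wago-1, both on chromosome I, had summits in the gene body only. At prg-1 they were 2 weak coding exon summits in replicate 1 (ranks 28289 and 29361 of 30000), 1 in the pooled relaxed list (rank 29219 of 30000) and none in replicate 2. At wago-1 the strongest was near the 3′ end in replicate 2, 2982 bp from the start, with signal 5.95 and rank 6956 of 26341. The pooled relaxed list placed a summit nearby at rank 22625 of 30000. The sperm paralogs alg-3 (chrIV:11704246-11708264) and alg-4 (chrIII:9887209-9891424) had few summits, as csr-1 did. Each had 1, in the body and in replicate 2 only, with rank 9965 of 26341 for alg-3 and 14774 for alg-4, and nothing in replicate 1 or in the pooled relaxed list.

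The distance to the nearest reproducible summit from any annotated start did not overlap between the classes. It rests on the same peaks as the calls above, so it is no separate support for the contrast. The distance was 183 bp for rde-1, 346 bp for alg-1 and 400 bp for alg-2. Within these distances 11.3%, 17.6% and 18.7% of all protein-coding genes have a reproducible summit. Among the germline members it ran from 2144 bp at wago-1 over a median of 6447 bp to 17557 bp at alg-4. Of all protein-coding genes, 34.2% have a summit within the wago-1 distance and 82.4% within the alg-4 distance. The median over all protein-coding genes was 4922 bp (interquartile range 933 to 12918), so the germline distances lie around the genome's own middle. The wago-1 value belongs to a summit in the promoter of hasp-1, and that of hrde-1, 4959 bp away, to one shared by C16C10.4 and rnf-121. The number of annotated starts, from any of which the distance was taken, differed between genes. The somatic members had 1, 4 and 2 starts, the germline members 1 to 4, and 72.6% of all protein-coding genes had 1. Its part in the result was not tested.

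**Figure D3:**
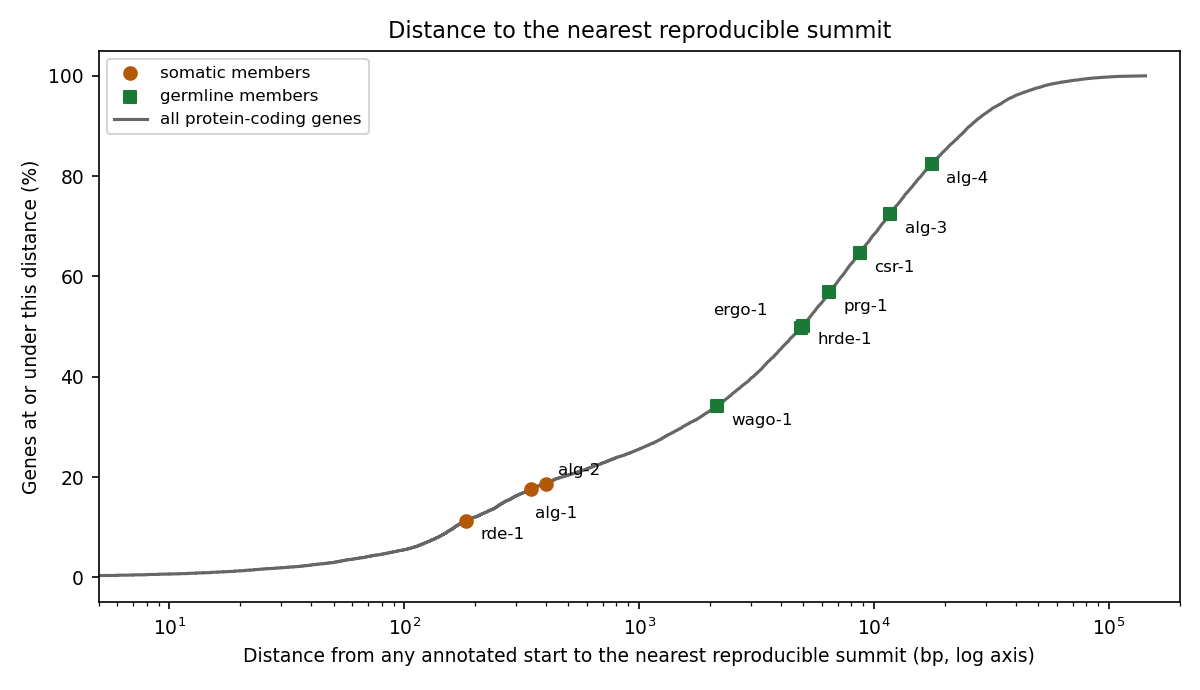
The horizontal axis gives the distance from any annotated start of a gene to the nearest reproducible summit (bp, log axis), and the vertical axis the share of protein-coding genes at or under that distance. The 3 somatic members lie at 183 to 400 bp, where at most 18.7% of genes are as near. The 7 germline members lie at 2144 to 17557 bp, where 34.2% to 82.4% of genes are as near.

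The gene bodies of alg-1 and alg-2 also held rows of weak summits. In the pooled relaxed list the body of alg-1 had 7 summits (0.979 per kb) and that of alg-2 had 6 (0.899 per kb), against 0.284 per kb over all protein-coding genes. A body ran from the outermost start to the gene end, so it can hold promoter windows. Of the 7 summits in alg-1, 3 also lay in its promoter windows, while the pooled relaxed promoter summit of alg-2 lay outside its body. Beside the reproducible one in each, 6 in alg-1 had signals from 7.81 to 18.1 and 5 in alg-2 from 8.14 to 12.4. The lowest signal in that list was 7.31. Their −log10 q-values were low, 0.169 to 1.10 in alg-1 and 0.185 to 0.483 in alg-2. Of these weak summits, 3 in alg-1 and 2 in alg-2 lay in coding exons. Replicate 1 gave 0.979 per kb for alg-1 and 0.749 for alg-2, against 0.282 over all genes. Replicate 2 gave 0.280 and 0.450, against 0.246. The gap to all genes was thus smaller in replicate 2. The 3 somatic bodies together had 0.798 pooled relaxed summits per kb (14 summits) and the 7 germline bodies 0.0911 (3 summits). In replicate 1 these were 0.741 in somatic and 0.0911 in germline bodies, and in replicate 2 they were closer, 0.342 in somatic and 0.182 in germline bodies with 6 summits each. The somatic value came from alg-1 and alg-2, since rde-1 had 0.268 pooled relaxed summits per kb, below prg-1 (0.329) and wago-1 (0.293). The only pooled relaxed summit in the rde-1 body also lay in the promoter window of C27H6.8, 223 bp upstream of the C27H6.8 start. By gene, a pooled relaxed summit lay in the body of 3 of 3 somatic and 3 of 7 germline members, against 38.1% of all genes. A reproducible one lay in 2 of 3 somatic and 0 of 7 germline bodies, against 8.04%.

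Which somatic genes counted as bound at the promoter depended on the rule. The germline count was 0 under every rule on the reproducible list or on the 6712 strongest peaks of 1 replicate. On the reproducible list this was fixed by the distances above. The summit nearest to a germline start was 2144 bp away, at wago-1, beyond every window used. Those counts of 0 are therefore the same observation. With a window of 1000 bp upstream, alg-2 joined the others and 3 of 3 somatic members were called, against 24.1% of all genes. The same 3 were called when the peak rather than its summit had to overlap the window, against 21.6%. With 250 bp either side of the start only rde-1 remained, against 14.2%. With each summit assigned to its single nearest start, up to 2 kb away, alg-1 and alg-2 were called and rde-1 lost its summit to trpp-6, against 22.6%. Among the 3356 strongest reproducible peaks only alg-1 was called, against 12.7%. With the 6712 strongest peaks of replicate 1 alone the called genes were alg-1 and rde-1, against 19.8% of all genes, and with those of replicate 2 alone they were alg-1 and alg-2, against 17.8%. The replicate 2 call of alg-2 came from the summit 100 bp upstream of its first start, not from the peak in its intron. Only alg-1 was called from both replicates. With every pooled relaxed peak the call took in all 3 somatic members and hrde-1, 1 of 7 germline members, against 38.3% of all genes. The full list of replicate 1 called 2 of 3 somatic members and 2 of 7 germline members, csr-1 and hrde-1, against 38.2%. The full list of replicate 2 called 3 of 3 somatic members and 1 of 7 germline members, hrde-1, against 35.6%.

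**Figure D4:**
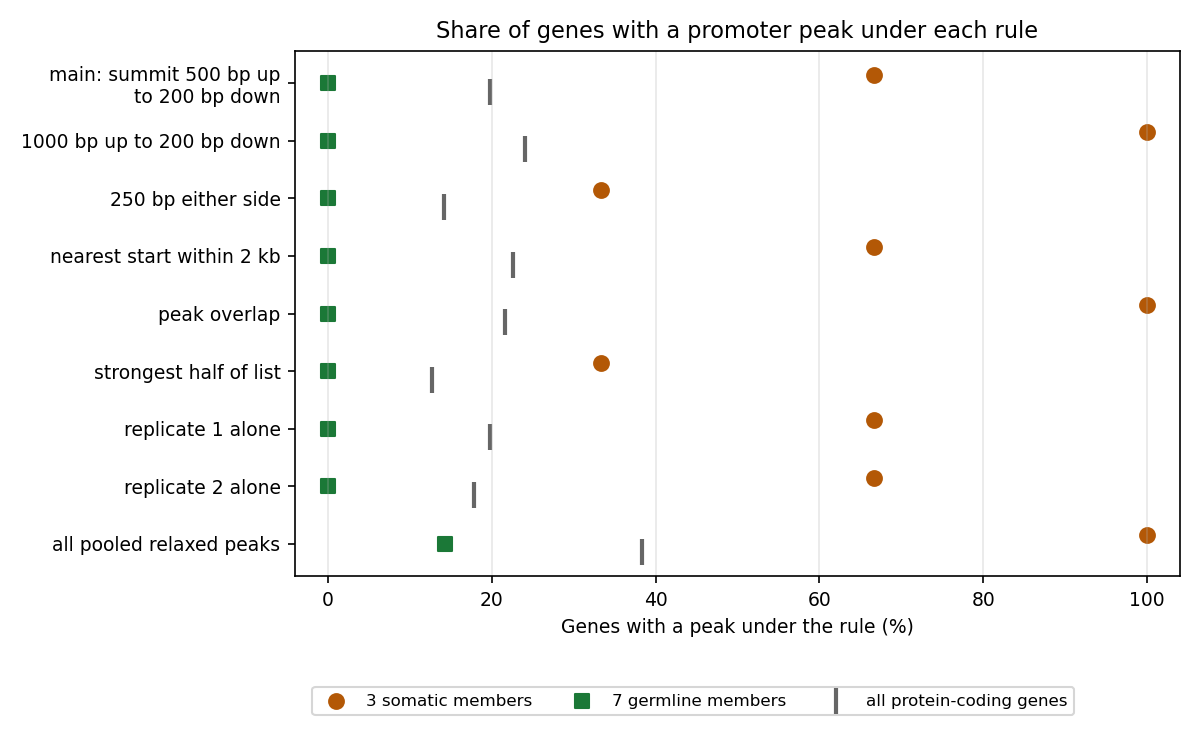
For each rule on the vertical axis, the horizontal axis gives the percentage of the 3 somatic members, the 7 germline members and all protein-coding genes with a peak. The germline squares stand at 0% under every rule except all pooled relaxed peaks, where 1 of 7 is called against 38.3% of all genes.

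Of 13 other Argonaute genes listed, prg-2, wago-2 and wago-11 were not matched to a protein-coding gene. Of the remaining 10, wago-4 had a reproducible promoter peak (1 of 10, against 19.8% of all genes). WAGO-4 is a germline Argonaute of inherited RNA interference. Its summit, 217 bp upstream of the start, had signal 105 and rank 3140 of 6712, and it also lay in the promoter window of F58G1.2. Replicate 1 had signal 92.4 and rank 3212 of 30000 there, and replicate 2 signal 13.4 and rank 2643 of 26341. A germline role and a reproducible peak thus did occur together outside the 10 members. The genes alg-5 and nrde-3 come first by name among those without one, and alg-5 gained a summit in the window of 1000 bp upstream. At nrde-3 the pooled relaxed list had a summit 299 bp upstream with signal 24.9, and replicate 2 listed none.

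Genes for proteins that work in the same small RNA pathways, from making the RNAs to acting after the Argonautes, were described beside the Argonautes themselves. Of 32 listed, cde-1 was not matched, and 12 of the other 31 had a reproducible promoter summit (38.7%, against 19.8% of all genes). Among the Argonaute members it was 2 of 10, and the difference was not tested. By role they were 3 of 8 microRNA, 3 of 8 piRNA, 2 of 3 CSR-1, 1 of 5 nuclear and 3 of 7 ERGO-1 pathway genes. Their median signal was 201 (range 48.9 to 2146). The highest was at pash-1, the partner of the Drosha microRNA processing enzyme (signal 2146, rank 38 of 6712). It was followed by rde-4, which binds double-stranded RNA beside RDE-1 (674), tofu-6, a piRNA biogenesis gene (277), nrde-4 of the nuclear pathway (269) and rrf-3, the polymerase gene upstream of 26G RNAs (245). The GW182 genes ain-1 and ain-2, whose proteins work with ALG-1 and ALG-2, had none. However, ain-1 gained a reproducible summit in the window of 1000 bp upstream, and ain-2 had one in its gene body. Both were called by the nearest start within 2 kb. All 12 had a summit among the 6712 strongest of replicate 1, and 8 of the 12 did in replicate 2. The rde-4 and drh-3 promoters had no summit in the replicate 2 list. Of the 12 genes, 6 shared their summit with the promoter window of another gene. Among the 5 strongest these were rde-4 (with cox-14), nrde-4 (with cima-1) and rrf-3 (with emb-27), but not pash-1 or tofu-6.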

How the data were processed

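The authors deposited peak lists in the ce10 and ce11 builds, per the notes with the samples: 1 relaxed list per replicate, 1 for both replicates pooled, and the IDR-thresholded list derived from those. Each was called against a control alignment not used here. Which aligner, caller and IDR cutoff produced the lists is not given in the sources used here. For each peak the deposited signal, the −log10 q-value and the summit offset were used as deposited, from the ce11 lists only. Read depth is unknown. Starts came from Ensembl release 115 on WBcel235, and sequence from the RefSeq genome of the same assembly, whose chromosome lengths hold all peaks. The ce11 lists were read through their columns for signal, q-value and summit, and 0 columns of unknown origin were used. Peaks are counted as units, with no test.

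Members and lists were chosen with earlier results of these data known. All 10 members are named. From other lists, all genes with a peak are named if 8 or fewer, otherwise the 5 strongest, with the first 2 by name without one. Neighbours sharing a member's summit are named too. The alternatives were other windows, nearest-start assignment, peak overlap, stricter and looser lists, and each replicate alone. As a check of the code, summits were planted inside the promoter windows of 2000 genes, and 100% were recovered. This check cannot tell which gene a summit shared by 2 windows belongs to. Python 3.11.15, numpy 2.4.6, pandas 2.3.3 and matplotlib 3.10.9 were used.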

Additional observations from a re-analysis of the deposited data

How the results depend on the processing

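The members' promoter count was 2 in the main setting and 3 in the window of 1000 bp upstream and by peak overlap. It fell to 1 with 250 bp either side and with the 3356 strongest peaks, and was 4 with all pooled relaxed peaks. The somatic count was 1 in both of those settings. The germline count was 1 with all pooled relaxed peaks, 2 with the full list of replicate 1 and 1 with that of replicate 2. It was 0 under the other alternatives run, and on the reproducible list these counts of 0 are the same observation. Other Argonaute genes went to 2 with 1000 bp upstream and to 3 with all pooled relaxed peaks, and partner genes to 22 with all pooled relaxed peaks. The background share was 12.7% with the 3356 strongest peaks and 38.3% with all pooled relaxed peaks. A part of the same list cannot raise this share, and a longer list that holds it cannot lower it. Within 150 bp of the summit, TGATAA was at 1 of the 3 reproducible summits (rde-1), and the counts of the other motifs did not change. Leaving out a replicate gave 2 members, 2 somatic and 0 germline either way, but different genes: rde-1 was called without replicate 2, alg-2 without replicate 1. That alg-2 call came from a replicate 2 summit upstream of its first start, not from the reproducible peak in its intron. Partner genes ran from 9 to 12, the background share from 17.8% to 19.8%, and other Argonaute genes stayed at 1. No paired analysis was possible because there is 1 group. Read depth is unknown, so a missing summit is not shown to be an absence of binding.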
